A study of Saccharomyces cerevisiae with 41 samples.

Results

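The stretch of 18S rRNA from nucleotide 547 to nucleotide 639 was taken as the rows with those positions in the deposited table, which gave 93 of 1800 nucleotides. It holds helix 18 (h18, nucleotides 547 to 592, 46 nucleotides) and the link that follows it into the central domain (593 to 639, 47 nucleotides), up to the start of expansion segment 6. In the ribosome, h18 forms part of the decoding region of the small subunit. Its loop, known as the 530 loop from the numbering of Escherichia coli 16S rRNA, folds back on the helix as a pseudoknot, and its conserved guanosine G530 contacts the pairing of codon and anticodon in the A site. The link holds h19 and the start of h20, which join the body of the subunit to the platform side.

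With the Escherichia coli numbers shifted by 47 nucleotides, G530 falls on yeast G577. A script carried over the textbook pairing with this shift. All 3 pairs of the pseudoknot (552 to 554 with 571 to 573) and 5 of 7 pairs of the inner stem (558 to 564 with 581 to 587) could form by sequence. The outer stem gave 3 of 5 pairs, and 5 of 5 once its 3' strand was moved by 1 nucleotide (547 to 551 with 587 to 591), a choice made after seeing the data.

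The sequences below are copied from the deposited table, with T written as U, and are shown 5' to 3' because the marked letters carry the comparison that follows. Capitals mark paired nucleotides in the lines named stems and pseudoknot. In the other lines capitals mark each nucleotide whose adduct stop, listed 1 nucleotide further 3', had a reactivity of at least 0.3. Reactivity is the treated drop-off rate minus that of the matched control, divided by a high value of the same column, and is defined with the processing.

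h18 stems: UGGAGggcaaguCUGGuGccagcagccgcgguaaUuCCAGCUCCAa

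h18 pseudoknot: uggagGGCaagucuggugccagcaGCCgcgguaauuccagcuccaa

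h18 1M7 mid-early mean: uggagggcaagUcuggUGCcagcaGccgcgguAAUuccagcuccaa

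h18 1M7 late mean: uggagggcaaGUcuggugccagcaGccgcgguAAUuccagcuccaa

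h18 NAI on 80S: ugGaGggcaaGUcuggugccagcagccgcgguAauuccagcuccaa

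h18 DMS on 80S: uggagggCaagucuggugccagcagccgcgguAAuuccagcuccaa

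link 1M7 mid-early mean: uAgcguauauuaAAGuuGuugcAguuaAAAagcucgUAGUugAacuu

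link 1M7 late mean: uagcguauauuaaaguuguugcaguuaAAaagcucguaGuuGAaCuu

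link NAI on 80S: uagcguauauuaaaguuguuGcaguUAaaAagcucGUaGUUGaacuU

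link DMS on 80S: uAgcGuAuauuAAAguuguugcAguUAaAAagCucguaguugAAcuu

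The 1M7 lines of h18 differ at G557 and where the inner stem turns into the loop. G557 is in capitals in the late line and in the NAI line, but not in the mid-early line. U563, G564 and C565 are in capitals in the mid-early line and in none of the other reagent lines of h18. A579, the nucleotide that corresponds to Escherichia coli A532, is in capitals in all 4 reagent lines of h18. In the link 14 nucleotides are marked in the mid-early line and 6 in the late line, but these lines rest on means of columns. The counts of the single columns, given below, overlapped between the stages.

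The samples were 20S pre-rRNA or 18S rRNA from particles that were immunoprecipitated from Saccharomyces cerevisiae strain BY4741. With 1M7, which acylates flexible riboses, the tags were enp1-HTP::K.I.URA3 (2 samples), ltv1-HTP::K.I.URA3 (2), rio2-HTP::K.I.URA3 (2), tsr1-HTP::K.I.URA3 (3), nob1-TAP::K.I.URA3 (2), rio1-HTP::K.I.URA3 (3) and fun12-TAP::K.I.HIS3 (3, named 80S, 18S rRNA). The 80S-like samples (2) carried fun12-TAP::K.I.HIS3 together with GAL::3HA-fap7::kanMX4, and like the other samples outside 80S they are labelled 20S. NAI, another ribose reagent, was used on the Tsr1 (2), Rio1 (1) and 80S (2) strains, and DMS, which methylates unpaired adenines and cytosines, on 80S (3). Untreated columns were the mid-early control (4 samples, from the enp1, ltv1, tsr1 and rio2 strains, 20S), the late control (3, from the nob1 and fun12 strains, labelled 18S), DMSO on Tsr1 (2, 20S) and on 80S (2, 18S), and the control of the DMS set (3, 18S). The 4 purifications called mid-early here (Enp1, Ltv1, Rio2, Tsr1) had the mid-early control subtracted. The other 4, called late (Nob1, Rio1, 80S-like, 80S), had the late one. Enp1, Ltv1, Rio2 and Tsr1 are assembly factors of pre-40S particles, Nob1 is the endonuclease that makes the 3' end of 18S rRNA, Rio1 is a kinase of late pre-40S particles, Fap7 is an ATPase needed late in maturation, and Fun12 is an initiation factor that joins the ribosomal subunits. Strains were grown in dextrose or in galactose with raffinose, and which medium each sample had, and so whether Fap7 was depleted, is not given in the labels. No late control sample came from a rio1 strain or from the fap7 strain. NAI on Rio1 was set against the DMSO samples of Tsr1.

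The deposited values are 17 columns of the authors' means, with no replicate values and no read depth, so no counting interval can be given. An SD below is the spread between the 4 purifications of a stage, and a p-value measures that spread alone and not the error of the control that a stage shares. Columns also differed apart from the stage. Mature 80S had the smallest 1M7 divisor, a rate of 0.0213 against 0.0267 to 0.0392 in the other 7 columns, so departures from its control are enlarged. At some stops of the link its values stood apart from those of the other late columns, as given below.

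Reactive stops (0.3 or more) were found in every treated column of the stretch. With 1M7 they numbered 18 of 93 in Enp1 (17.5% of all 1799 nucleotides), 25 in Ltv1 (16.7%), 28 in Rio2 (17.8%) and 19 in Tsr1 (15.8%). In the late columns they numbered 21 in Nob1 (17.5%), 18 in Rio1 (16.7%), 12 in 80S-like (15.6%) and 20 in 80S (16.5%). Rio2 had 30.1% of the stretch reactive and 80S-like 12.9%, the highest and lowest of the 8. In the link alone there were 12, 13, 16 and 11 in Enp1, Ltv1, Rio2 and Tsr1. Nob1, Rio1, 80S-like and 80S had 15, 9, 7 and 12 there, so the stages overlapped. With NAI there were 12 in Tsr1 (13.2% of all nucleotides), 9 in Rio1 (12.8%) and 15 in 80S (11.8%), and with DMS 17 in 80S (14.5%). Of the 17 DMS stops, 13 lay 3' of an adenine and 2 of a cytosine, while the listed nucleotide itself was adenine in 9 and cytosine in 1. Names such as C565 below are those of the listed stop.

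**Figure D1:**
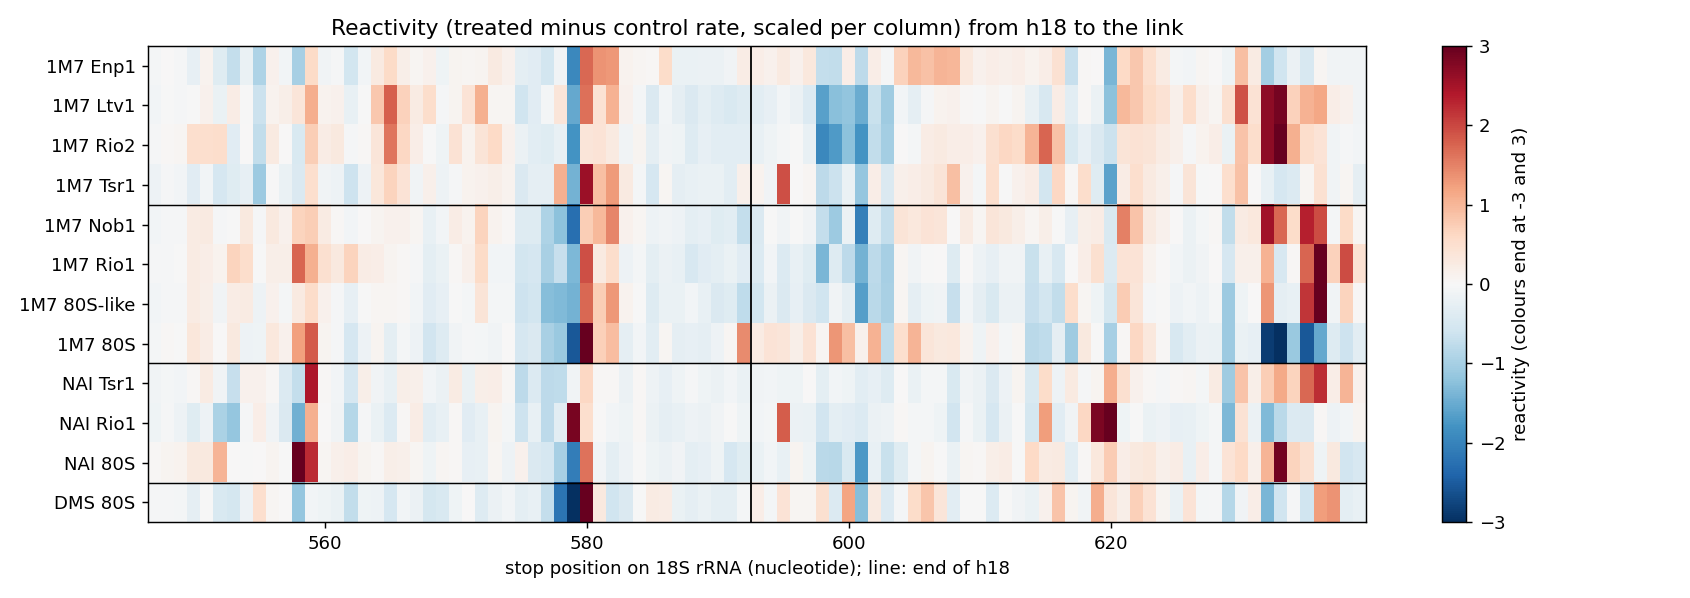
Reactivity of the 93 nucleotides (x axis, 18S position of the stop) in the 12 treated columns (rows: 1M7 mid-early, 1M7 late, NAI, DMS). Red is above and blue below the matched control, colours end at -3 and 3, and the vertical line ends h18. A579 is blue in all 8 columns with 1M7 and A580 beside it is red in all 12 columns.

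Mid-early columns were set against late ones to ask where the decoding helix and its link gain or lose flexibility during assembly. In h18 the reactivity of C565, at the turn from the inner stem into the loop, was lost in the late particles. It was 0.584 in Enp1, 1.79 in Ltv1, 1.60 in Rio2 and 0.678 in Tsr1. In the late columns it was 0.129 in Nob1, 0.0822 in Rio1, 0.0701 in 80S-like and -0.286 in 80S. The stages did not overlap, and Ltv1 and Rio2 were the highest. The mean fell from 1.16 ± 0.621 to -0.00117 ± 0.191 (SD, n = 4 purifications each), which on the log2 scale was -2.81 (SE 0.59, limma adjusted p = 0.0236).

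Both neighbours of C565 had the same order of stages without passing the threshold. G564 had 0.262, 0.806, 0.354 and 0.345 in Enp1, Ltv1, Rio2 and Tsr1, against 0.0871, 0.207, 0.0608 and 0.0780 in Nob1, Rio1, 80S-like and 80S (log2 difference -1.33, SE 0.55, limma adjusted p = 0.203). C566 had 0.187, 0.692, 0.614 and 0.412 against 0.122, 0.0326, 0.0467 and -0.0661 (log2 difference -1.90, SE 0.55, limma adjusted p = 0.0733). At all 3 stops the mid-early reactivities lay above the late ones, while the treated rates of G564 overlapped (0.0160 to 0.0344 mid-early, 0.0112 to 0.0176 late). The nucleotides 5' of these stops are U563, G564 and C565, of which G564 could pair with U581 as a wobble pair and U563 faces U582. The treated rates themselves differed at C565, from 0.0443 to 0.0857 over the mid-early columns and from 0.0172 to 0.0283 over the late ones, while the controls had 0.0262 and 0.0233.

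**Figure D2:**
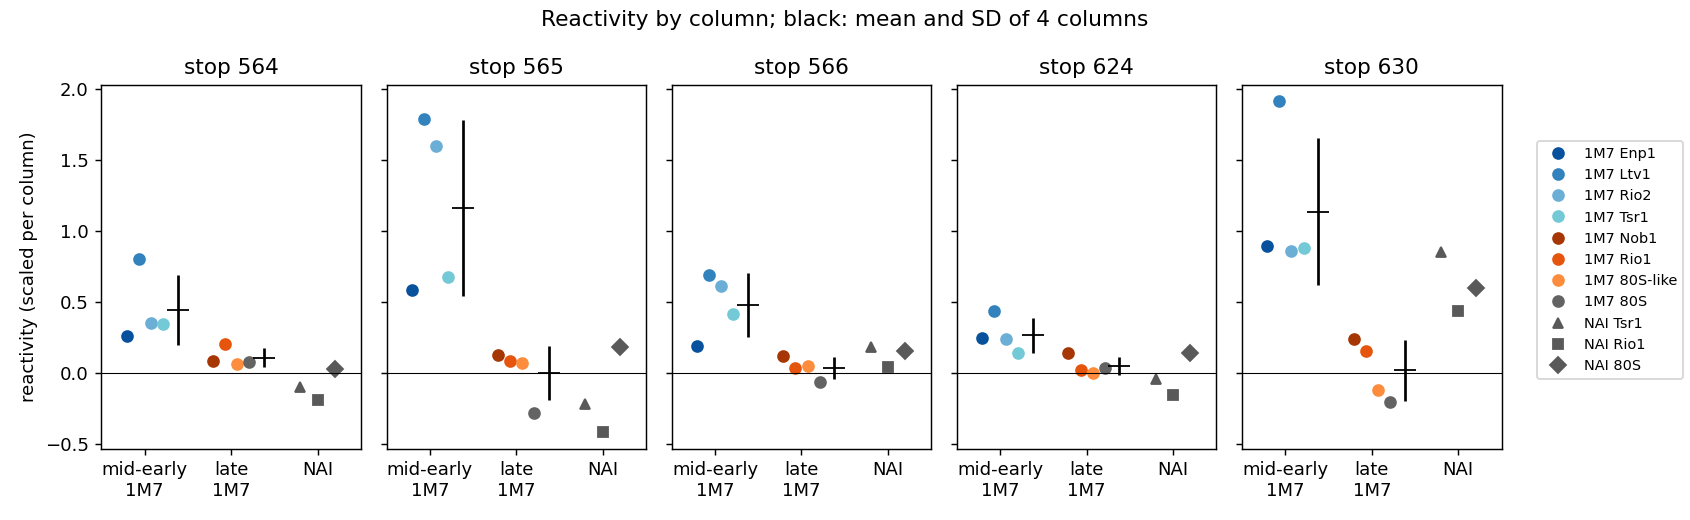
Reactivity (y axis) at the 5 tested stops whose stages did not overlap and whose log2 difference was at least 1, by column. Circles are 1M7 columns, black bars the mean and SD of 4 columns, and grey triangles, squares and diamonds NAI on Tsr1, Rio1 and 80S. At C565 the mid-early circles span 0.584 to 1.79 and the late circles -0.286 to 0.129.

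In the link the same held for A630, the stop 3' of U629. Its reactivity was 0.894 in Enp1, 1.91 in Ltv1, 0.859 in Rio2 and 0.879 in Tsr1. The late columns had 0.241 in Nob1, 0.152 in Rio1, -0.120 in 80S-like and -0.201 in 80S, with no overlap. Its mean fell from 1.14 ± 0.518 to 0.0180 ± 0.212 (SD, n = 4 each), which on the log2 scale was -2.77 (SE 0.62, limma adjusted p = 0.0281). U629 beside it had -0.131, 0.476, -0.205 and 0.504 in Enp1, Ltv1, Rio2 and Tsr1, while Nob1, Rio1, 80S-like and 80S had -0.740, -0.511, -1.10 and -1.09. These stages did not overlap either, but its treated rates did (0.0502 to 0.0725 mid-early, 0.0344 to 0.0538 late), and U629 was below the filter and was not tested. G624 in the link had mid-early values from 0.144 to 0.434 and late values from -0.00058 to 0.138 (log2 difference -1.32, SE 0.48, limma adjusted p = 0.145), so its stages were separated by less than the spread within either. The treated rates of G624 overlapped (0.0102 to 0.0208 mid-early, 0.00819 to 0.0136 late).

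Of the 93 nucleotides 36 had a mean reactivity of at least 0.1 and were tested, 15 in h18 and 21 in the link, and 57 were not tested. With limma, 2 were called lower in the late stage, C565 and A630, against 3.57% of all 504 tested nucleotides. None was called higher (2.58% of all), and at an unadjusted p under 0.05 limma gave 7 lower and 2 higher. C565 and A630 passed the filter only through their mid-early values, as their late means were -0.00117 and 0.0180. Without the filter neither was called (limma adjusted p = 0.0537 and 0.0662). The stages did not overlap at 5 of the 36 with late lower (10.1% of all tested) and at 0 with late higher (3.57%). The median log2 difference was -0.16 in the stretch and -0.29 over all tested nucleotides. Among all 93 nucleotides, tested or not, the stages did not overlap at 14 with late lower (8.56% of all 1799) and at 1 with late higher (7.73%). Of the 14, 8 lay in h18 and 6 in the link, and 9 were below the filter and had no test.

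Both calls depended on which purifications were used. C565 and A630 were each called without Nob1 or without 80S, but neither was called without Enp1, Ltv1, Rio2, Tsr1, Rio1 or 80S-like, with limma adjusted p from 0.0594 to 0.0899 and log2 differences from -3.06 to -2.51. Without mature 80S, limma called 9 of 39 tested nucleotides in the stretch, against 23.1% of all tested, with U558, A635, A636 and U638 higher and C566, U608 and G616 lower in addition to C565 and A630.

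**Figure D3:**
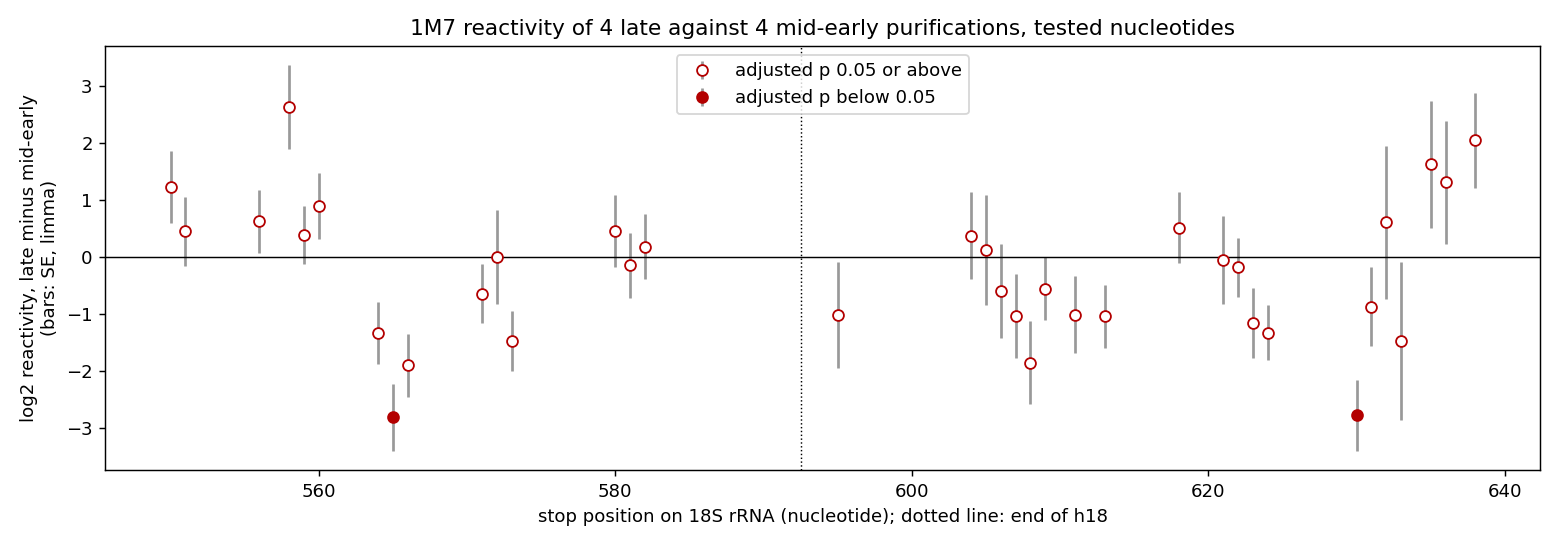
Log2 difference in 1M7 reactivity, late minus mid-early (y axis, bars SE by limma), at the 36 tested nucleotides by 18S position. Filled points, at C565 (-2.81) and A630 (-2.77), passed an adjusted p of 0.05. The open point highest on the axis is U558 (2.63).

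NAI did not show the same loss at C565. There it gave -0.222 for Tsr1, -0.416 for Rio1 and 0.182 for 80S, so Tsr1 particles were not above 80S with that reagent. At A630 NAI gave 0.854 for Tsr1, 0.439 for Rio1 and 0.597 for 80S. Each NAI column stands alone and allows no test.

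The conserved loop itself had 2 opposite features side by side. At G576, which corresponds to G529 of Escherichia coli, reactivity was below the control in all 8 columns of 1M7 (-0.548 to -0.262). At G577, the nucleotide that corresponds to G530, it was -0.541, -0.0587, -0.361 and -0.270 in Enp1, Ltv1, Rio2 and Tsr1. In the late columns it was -0.925, -0.972, -1.29 and -0.970 in Nob1, Rio1, 80S-like and 80S. All late reactivities were thus lower than all mid-early ones at G577, but the treated rates overlapped. They were 0.0263, 0.0416, 0.0321 and 0.0364 in Enp1, Ltv1, Rio2 and Tsr1, and 0.0223, 0.0202, 0.0119 and 0.0376 in Nob1, Rio1, 80S-like and 80S. Because these values are below the control they were not tested. The untreated rate at G577 was 0.0583 in the late control and 0.0436 in the mid-early control, and the part of that difference in the lower late values was not tested. A stop listed at G577 lies 3' of G576, and the stop that lies 3' of G577 itself is listed at U578.

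U578, a ribose-methylated nucleotide at the place of Escherichia coli U531, had -0.106, 0.352, -0.212 and 1.06 in Enp1, Ltv1, Rio2 and Tsr1. The late columns had -1.24, -0.698, -1.34 and -1.12, again with no overlap and again not tested. Its treated rates did not overlap either (0.0726 to 0.108 mid-early, 0.0389 to 0.0635 late). A579, the stop 3' of U578, was far below the control with 1M7 in all columns, from -2.55 in 80S to -1.36 in Rio1. DMS on 80S gave -5.43 there, and NAI gave -0.104 for Tsr1, 2.84 for Rio1 and -2.06 for 80S. The NAI-treated rates of Tsr1 and 80S were close (0.0412 and 0.0426), while their DMSO controls had 0.0462 and 0.114. The DMS-treated rate was 0.0680 against 0.266 in its control. A579 was among the strongest stops of untreated RNA in the stretch, as described with the controls.

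Next to these, A580 had the highest mean 1M7 reactivity of the stretch over the 8 columns. Its 1M7 reactivity was 1.72 in Enp1, 1.66 in Ltv1, 0.374 in Rio2 and 2.57 in Tsr1, and 0.745 in Nob1, 1.92 in Rio1, 1.73 in 80S-like and 4.46 in 80S. Rio2 was the lowest and mature 80S the highest, and the stages overlapped (log2 difference 0.45, SE 0.63, limma adjusted p = 0.672). NAI gave 0.628, 0.510 and 1.62 in Tsr1, Rio1 and 80S, and DMS gave 3.50 in 80S, the highest DMS value of the stretch. The nucleotide 5' of this stop is A579. U581 and U582 followed with 1M7 reactivities of 0.268 to 1.35 and 0.276 to 1.45 in the 8 columns, again with overlapping stages. With NAI both were at or below 0.0465 in all 3 columns, and with DMS U581 had 0.304 and U582 -0.597.

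Reactive nucleotides of h18 were counted by element, each stop with the nucleotide 5' of it, as a description with no test. With 1M7, in the outer stem 0 of 10 paired nucleotides had a stage mean of 0.3 or more. The inner stem had 2 of 10 at the mid-early stage and 1 of 10 at the late stage, and the pseudoknot 1 of 6 at each. Among the 20 other nucleotides 5 were reactive at the mid-early stage and 4 at the late stage. The reactive nucleotide of the pseudoknot was G571, whose stop at C572 ranged from -0.0592 in 80S to 1.08 in Ltv1. NAI on 80S had another distribution, with 2 of 10 in the outer stem, 0 of 10 in the inner stem, 0 of 6 in the pseudoknot and 3 of 20 elsewhere. Counted at the listed stop, 13 of 93 nucleotides of the stretch lay below the control in all 8 columns of 1M7, 11 in h18 and 2 in the link, against 16.1% of all 1799.

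On the 5' strand of h18, C559 was reactive in all 8 columns with 1M7, from 0.515 in Tsr1 to 1.85 in 80S, and in all 3 with NAI (2.42 for Tsr1, 1.06 for Rio1 and 2.25 for 80S). DMS gave -0.0744 there. U558 beside it varied more. Its 1M7 reactivity was -0.987, 0.370, -0.454 and -0.439 in Enp1, Ltv1, Rio2 and Tsr1, and 0.676, 1.74, 0.270 and 1.22 in Nob1, Rio1, 80S-like and 80S. Only Ltv1 among the mid-early columns exceeded the lowest late column (log2 difference 2.63, SE 0.74, limma adjusted p = 0.0636). Without Ltv1 it was called (log2 difference 3.19, SE 0.73, limma adjusted p = 0.0390). That fit drops the mid-early column that overlapped the late ones, so it is not separate support.

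NAI at U558 was -0.705 for Tsr1, -1.44 for Rio1 and 3.38 for 80S, the highest value of NAI on 80S in the stretch. Rio1 and 80S thus lay on opposite sides of their controls with NAI and on the same side with 1M7. The NAI-treated rates were 0.0292 in Rio1, which is 1 sample, and 0.219 in 80S. With NAI the controls were those of Tsr1 and of 80S, while with 1M7 both used the late control. U558 was also a strong untreated stop, with 0.0635 for the mid-early control, 0.0468 for the late control, and 0.117 and 0.102 for the DMSO columns of Tsr1 and 80S.

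At some stops from the end of h18 into the link, mature 80S stood apart from the other columns. This did not hold at every stop there, and at G595 80S had 0.358 and Tsr1 1.92 with 1M7. At A592 the 1M7 reactivity of 80S was 1.41, against -0.771 to 0.228 in the other 7 columns. At A599 it was 1.33 against -1.69 to -0.113, and at U602 1.03 against -0.815 to 0.196. A601 had 0.125 in 80S and -2.06 to -0.787 elsewhere. The treated rate itself was higher in 80S than in 80S-like particles at A592 (0.0679 against 0.0101) and at U602 (0.0814 against 0.0301), where both use the late control. U600 was 0.906 in 80S with 1M7 and -1.24 to 0.201 in the other 7, and its DMS reactivity of 1.17 was again that of a stop 3' of an adenine. NAI on 80S did not share these high values, with -0.367 at A592, -0.823 at A599 and -0.234 at U602.

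A little further 3', at A605 to U608, Enp1 was high. Its reactivities were 0.978 at A605, 0.871 at A606, 1.02 at G607 and 1.01 at U608. At A605 80S had 1.01 and the other 6 columns -0.261 to 0.320, while at G607 the other 7 columns had -0.102 to 0.383. DMS on 80S gave 0.552 at A605 and 0.822 at A606, and NAI gave 0.0831 or less at A605 to U608 in all 3 columns. U608 was 1.01, 0.136, 0.188 and 0.891 in Enp1, Ltv1, Rio2 and Tsr1, against 0.00581, -0.382, -0.684 and 0.316 in Nob1, Rio1, 80S-like and 80S, and was not called (log2 difference -1.85, SE 0.73, limma adjusted p = 0.179).

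G595 was high in 1 column of each ribose reagent. With 1M7 it was 1.92 in Tsr1 and -0.442 to 0.358 in the other 7 columns. With NAI it was 1.82 in Rio1, but -0.139 in Tsr1 and -0.220 in 80S. The purification that was high with 1M7 was therefore not high with NAI, and the reverse held for Rio1 (-0.399 with 1M7). A615 was also carried by a single 1M7 column, with 1.74 in Rio2 and -0.759 to 0.206 in the other 7.

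The run of adenines from A619 to A623 starts with the ribose-methylated A619. At A620, the stop 3' of it, all 8 columns with 1M7 lay below the control, from -1.59 in Tsr1 to -0.404 in Rio1. NAI gave 1.09 for Tsr1, 5.28 for Rio1 and 0.751 for 80S. The value in Rio1 is the highest of the stretch in any column and came from a treated rate of 0.407 against 0.0823 in the DMSO samples of Tsr1, its control. A619 was also high in that column (2.82, against 0.0890 and 0.325 in Tsr1 and 80S), and A579, 3' of ribose-methylated U578, was high there too (2.84). U563, 3' of ribose-methylated G562, was not, with -0.0433 against 0.166 and 0.0742 in Tsr1 and 80S. G595 (1.82) and A615 (1.25) were high with NAI on Rio1 as well, and neither lies at or 3' of a modified site named here. NAI on Rio1 is a single sample, and its part in these values was not tested.

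A621 and A622 were reactive with 1M7 in most columns. A622 had 0.819, 0.816, 0.424 and 0.497 in Enp1, Ltv1, Rio2 and Tsr1, and 0.849, 0.412, 0.362 and 0.615 in Nob1, Rio1, 80S-like and 80S. All 8 columns were above 0.3 and the stages overlapped (log2 difference -0.18, SE 0.51, limma adjusted p = 0.847). A621 ranged from 0.0385 in 80S to 1.52 in Nob1. DMS gave 0.724 at A622, the stop 3' of A621, and 0.866 at G616, the stop 3' of A615. It gave 1.08 at A619, a stop that lies 3' of the uridine U618.

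At the 3' end of the link the columns diverged widely. U632, a pseudouridine in yeast, had 1M7 reactivities of 2.68 in Ltv1, 2.69 in Rio2 and 2.51 in Nob1, then 1.32 in 80S-like and 1.04 in Rio1. It was -0.221 in Tsr1, -1.01 in Enp1 and -2.86 in 80S. U633, the stop 3' of it, had 2.86 in Ltv1, 3.54 in Rio2 and 1.73 in Nob1, and lay between -3.57 (80S) and -0.264 (80S-like) in the other 5. Both stages thus held high and low columns at both stops. The treated rates at U633 ran from 0.0436 in 80S to 0.202 in Rio2, and both controls were high there (0.0892 mid-early, 0.120 late). At U632 the treated rates of 80S and Enp1 were close (0.0603 and 0.0645), with controls of 0.121 late and 0.0969 mid-early.

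A635 and A636 had another order. A636 was 0.0515, 1.15, 0.400 and 0.450 in Enp1, Ltv1, Rio2 and Tsr1, and 1.96, 2.98, 3.05 and -1.55 in Nob1, Rio1, 80S-like and 80S. The late columns on 20S pre-rRNA were above all mid-early columns, and mature 80S was below all of them (log2 difference 1.32, SE 1.08, limma adjusted p = 0.465). The treated rate at A636 was 0.0689 in 80S, close to 0.0722 in Enp1, the lowest mid-early column. The late control had 0.102 there and the mid-early control 0.0706, and their part in the low 80S value was not tested. Without 80S the log2 difference was 2.51 (SE 0.66, limma adjusted p = 0.0290). That fit drops the late column that lay on the other side, so it is not separate support. It called 23.1% of all tested nucleotides. A635 showed the same arrangement, with 1.75 to 2.34 in the late columns other than 80S, -2.54 in 80S and -0.480 to 1.05 in the mid-early columns. U638 was 1.95 in Rio1, 0.582 in Nob1 and 0.670 in 80S-like, and 0.117 or less in the other 5.

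**Figure D4:**
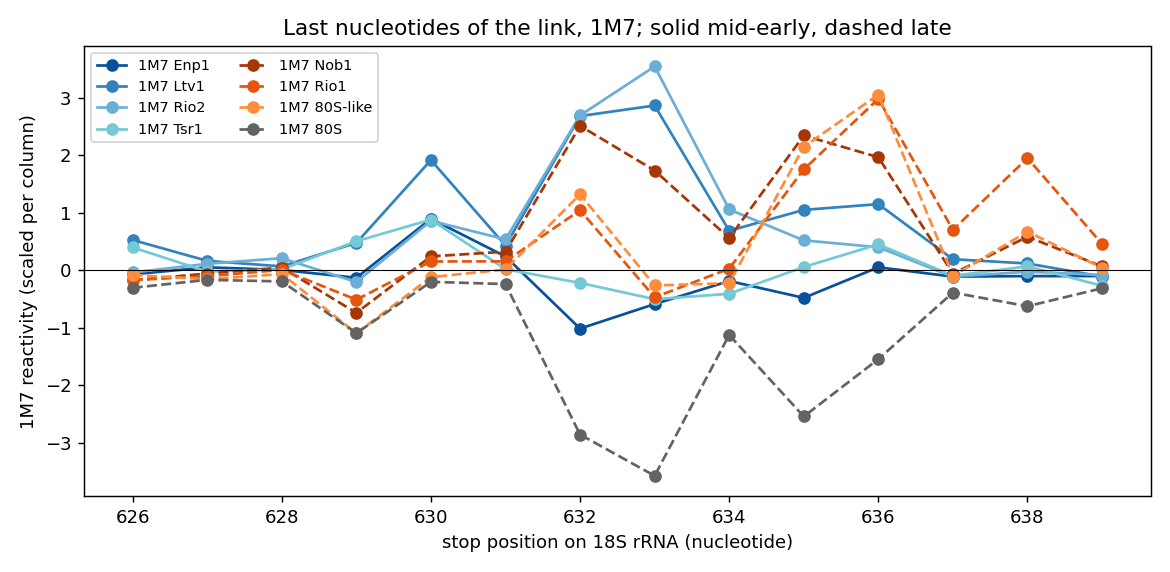
1M7 reactivity (y axis) of the last 14 nucleotides of the link by 18S position, a line per column, solid for mid-early and dashed for late. Ltv1, Rio2 and Nob1 peak at U632 and U633, Nob1, Rio1 and 80S-like at A635 and A636, and 80S is lowest at U632 (-2.86) to A636 (-1.55).

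With NAI the end of the link was reactive in Tsr1, with 1.13 at U633, 1.72 at A635 and 2.21 at A636. In Rio1 the same stops had -0.811, -0.431 and 0.0339. In 80S they had 2.89, 0.487 and -0.121. At U633 the treated rate was lower in 80S than in Tsr1 (0.171 against 0.232), and so was the DMSO control (0.0716 against 0.177). Tsr1 thus had the highest NAI value at A635 and A636, where its 1M7 values were 0.0565 and 0.450. DMS on 80S gave 1.24 at A636 and 1.34 at C637, the stops 3' of A635 and A636.

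Pairs of columns were compared by the number of stops whose reactivity differed by 0.5 or more, a description with 1 column a side. Enp1 and Tsr1 differed at 15 of 93 (9.67% of all 1799 nucleotides), and Rio2 and Nob1 at 22 (20.4%). Tsr1 and Rio1 differed at 37 (26.8%), 16 in h18 and 21 in the link, and Tsr1 and 80S at 36 (17.2%). These are 39.8% and 38.7% of the stretch. In both pairs the columns had different controls subtracted, as in Rio2 and Nob1 and in NAI on Tsr1 and 80S. The part of the controls in these counts was not tested. 80S-like and 80S differed at 25 (27.9%), of which 5 lay in h18 and 20 in the link. With NAI, Rio1 differed from Tsr1 at 16 (14% of all) and 80S from Tsr1 at 19 (22.3%), shares of the stretch of 17.2% and 20.4%. The largest single differences were the fall at A635 from 2.14 in 80S-like to -2.54 in 80S with 1M7, and the rise at A620 from 1.09 in Tsr1 to 5.28 in Rio1 with NAI.

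Untreated RNA shows where reverse transcriptase stops without a reagent. In the stretch the strongest such stops were U632, U633 and A635 near the end of the link, A601 and A579. A579, the stop 3' of ribose-methylated U578, had a rate of 0.0937 for the mid-early control and 0.0462 for the Tsr1 DMSO column, both 20S. The 18S columns had 0.115 in the late control, 0.114 in the 80S DMSO column and 0.266 in the control of the DMS set. All 3 columns of 18S were above both columns of 20S, and the control of the DMS set was the highest. A601 had 0.102 and 0.0512 in 20S, and 0.134, 0.114 and 0.130 in 18S.

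At A620, the stop 3' of ribose-methylated A619, the order was the reverse. The rate was 0.0864 and 0.0823 in the 20S columns, and 0.0575, 0.0363 and 0.0652 in the 18S columns. The 3rd ribose-methylated site, G562, had 0.0286 and 0.0621 in 20S and 0.0223 to 0.0362 in 18S, and its 3' stop U563 stayed at 0.0103 or less in all 5 columns. U633, 3' of the pseudouridine, had 0.0892 and 0.177 in 20S and 0.0716 to 0.120 in 18S, with overlap. The modified sites thus had no common direction between 20S and 18S RNA. In all, 20S and 18S columns did not overlap at 22 of 93 nucleotides, against 28.6% of all 1799, with 15 in h18 and 7 in the link and with 18S lower at 14 and higher at 8. With 2 columns against 3 there are 10 assignments, so an exact permutation test cannot reach 0.05, and none was run.

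**Figure D5:**
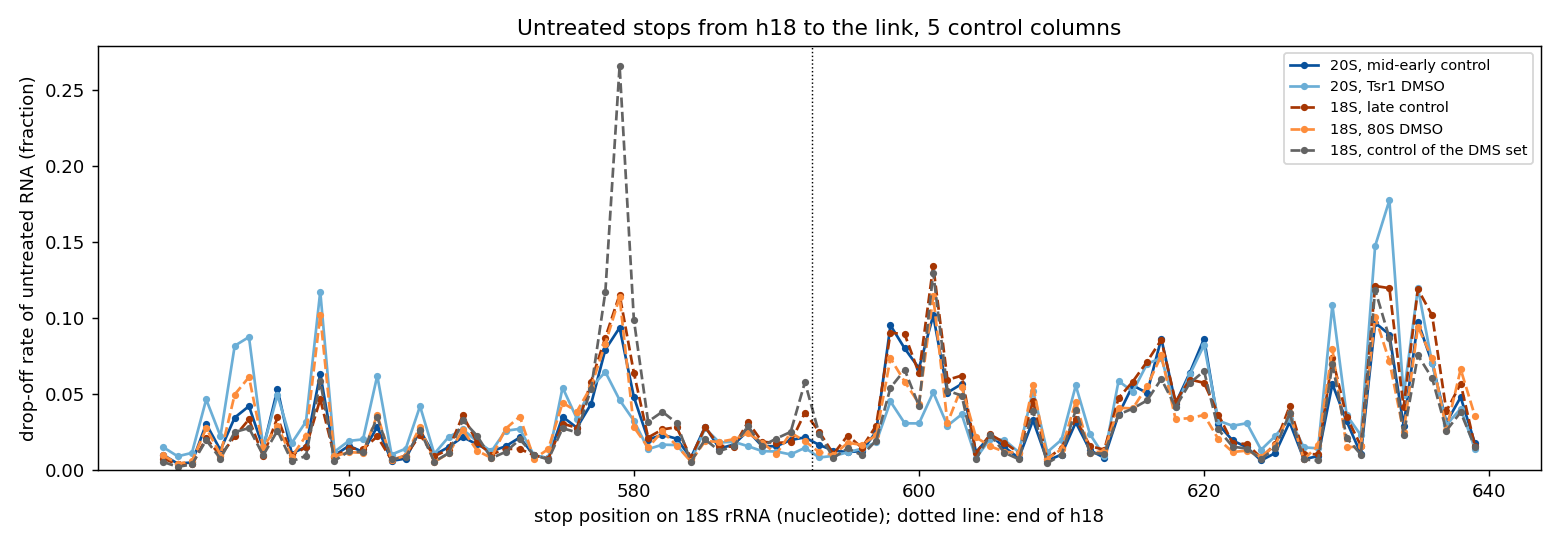
Drop-off rate of untreated RNA (y axis, fraction) by 18S position of the stop in the 5 control columns, solid for 20S and dashed for 18S, with the dotted line at the end of h18. The highest point is A579 in the control of the DMS set (0.266), and Tsr1 DMSO is highest at U633 (0.177).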

How the data were processed

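Per the file headers, the authors deposited average reverse transcription drop-off rates as a fraction from 0 to 1 for 1800 nucleotides of 18S, in 17 columns of pooled samples (41 samples). The submitters' processing notes name Novoalign 2.07. The making of the rates and averages, and the reference sequence, are not given in the sources used. The labels do not say that samples were separate cultures. Nucleotide 1, listed at 1 in every column, was left out. The mean rate was 0.0275 to 0.0311 in every column, so reactivities are relative within a column.

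From these rates the matched control was subtracted, and the difference was scaled by a high value of its own column, the mean over the 8% of nucleotides that rank right after the top 2%. For the stages, log2(max(reactivity, 0) + 0.1) of 4 late and 4 mid-early columns was fitted by limma 3.58.1 (R 4.3.3) with a mean-variance trend over all 504 nucleotides with a mean of at least 0.1, with Benjamini-Hochberg adjustment over all of them at 0.05. Every log2 difference is on this scale with its pseudocount, so changes of low values are understated. The fit was also run on simulated data with independent normal noise. Those data lacked the limit at 0 and the error of a shared control, so the run cannot vouch for the calls. Python 3.11.15, numpy 2.4.6 and pandas 2.3.3 were used.

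Nucleotides that could be named were those called, those whose stages did not overlap with a log2 difference of at least 1, the highest of each reagent and part, the largest pair differences, the strongest untreated stops, modified nucleotides with the stop 3' of them, and 4 conserved loop nucleotides. The stretch and its lists were chosen with earlier results of these data known. Alternatives changed the control, scaling, pseudocount, filter, stop offset, thresholds and columns used.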

Additional observations from a re-analysis of the deposited data

Results flagged for a closer look

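In 84 groups of 4 columns (42 named nucleotides, mid-early and late), 6 held a column far from the other 3 by Dixon's criterion. Chance flags about 1 in 20 groups that were not chosen by their values. Many of these nucleotides were named for large values or differences of single columns, so the 6 cannot be set against that share. Ltv1 was far above the other mid-early columns at G564 (0.806), A630 (1.91) and C637 (0.191). Mature 80S was far below the other late columns at C565 (-0.286) and A635 (-2.54), and 80S-like was far below them at G577 (-1.29).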

How the results depend on the processing

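The 2 late-lower calls and 0 late-higher calls of the stretch stayed at those numbers with the mean of both controls, with pseudocounts of 0.05 and 0.2 and with a filter of 0.3. Counting stops with the nucleotide 5' of them also left these numbers. That count reuses the same fit and moves the edges of the stretch by 1 nucleotide. C565 and A630 lie inside either way, so it is no check of their calls. Without subtraction there were 3 late-lower and 0 late-higher calls. Late-lower calls numbered 0 without the filter, 0 on the linear scale of reactivity and 0 on the unscaled rate difference, and 1 (C565) without Enp1, Tsr1 and 80S, a choice made after seeing the data. Leaving out 1 purification gave 0 to 5 late-lower and 0 to 4 late-higher calls. C565 and A630 kept their sign in all settings run. They passed the threshold in 8 and 7 of the 17 settings, and the causes of the lost calls were not tested. By its log2 difference C565 ranged from -3.32 to -1.22 on the log2 scales, and A630 from -3.34 to -0.89.

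At a threshold of 0.7 the reactive stops numbered 9 in Enp1, 13 in Ltv1, 9 in Rio2, 7 in Tsr1, 10 in Nob1, 8 in Rio1, 7 in 80S-like and 10 in 80S with 1M7, 7 with NAI on 80S and 8 with DMS. The mean of both controls left each 1M7 count within 1.5 times. At a difference of 1 or more, Enp1 and Tsr1 differed at 2 stops, Rio2 and Nob1 at 11, Tsr1 and Rio1 at 14, 80S-like and 80S at 16, Tsr1 and 80S at 18, and NAI on Tsr1 and 80S at 10. Without the control of the DMS set the untreated 20S and 18S columns did not overlap at 26 nucleotides. No paired analysis was possible because each column is a mean of its samples and carries no replicate number. Depth is unknown, so its limit on low rates cannot be set.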
